A study of Oryza sativa with 8 samples.

Results

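In roots of rice kept in the cold, transcripts of a phosphate exporter and of the main phosphate transcription factor rose in both lines studied. The rise of the factor lay near the threshold in the cold-sensitive line. Of the 4 phosphate transporters chosen 1 rose, in 1 line. Among all genes tested, 20.3% rose in the cold-tolerant and 22.8% in the cold-sensitive line. The genes described are 10 of the 42189 gene IDs measured, and were chosen by locus: the phosphate transporters PT1, PT2, PT4 and PT8, the phosphate exporter PHO1;2, the transcription factor PHR2, the ubiquitin-conjugating enzyme PHO2 and the SPX proteins SPX1, SPX2 and SPX3. All 10 were found in the deposited tables. The files pair no ID with a name, so the names follow the list of loci; 9 of the 10 names stand in the RefSeq gene table for rice, each on the chromosome that its locus ID gives, and PHO2 was not matched.

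RNA was sequenced from roots of 2 indica breeding lines of rice at about 30 days of age, when the seedlings had 3 leaves. Both carry IRGA line names with a common stem, and the labels describe the line whose name ends in -A as cold-tolerant and the one ending in -CA-1 as cold-sensitive. All plants grew in nutrient solution; its phosphate content was not stated in the sources. Control plants were kept at 28 °C and the others transferred to 10 °C, which makes 4 groups (each line at each temperature) of 2 libraries, with 4 plants pooled per library. Time in the cold is labelled in conflicting ways, as 24 h in the extraction protocol and as up to 10 days in the treatment protocol.

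Rice roots take up inorganic phosphate through proton-coupled transporters of the PHT1 family, to which the PT proteins belong, and PHO1 proteins release it into the xylem for the shoot. PHR2 is the central transcription factor of the starvation response. SPX proteins sense the phosphate status of the cell and, when phosphate is ample, bind PHR proteins and hold them back. PHO2 marks phosphate transporters and exporters for degradation, and its own transcript is a target of the microRNA miR399.

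Values are normalised read counts (reads divided by the library's size factor), calculated for each group out of the overall mean and the fold changes in the authors' deposited table. Values of single libraries were not used here, so no group level carries a standard deviation; the error is the standard error (SE) of the log2 change in the fit over all 8 libraries. A gene is said to rise or fall where its Benjamini-Hochberg adjusted p in the authors' deposited table was below 0.05. Since nothing but the words "biological rep" separates the 2 libraries of a group, these p-values measure the spread between such libraries, which may be technical. Relative depth ran from size factors of 0.679 to 0.991 at 10 °C and from 1.10 to 1.25 at 28 °C.

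As a check of the tissue, the silicon transporters Lsi1 and Lsi2, the manganese transporter NRAMP5 and RCc3, a gene of the root cortex, summed at 28 °C to 64617 normalised counts in the tolerant line and 46673 in the sensitive line. At 10 °C the same 4 root loci summed to 5832 and 7991. Of these 4 loci, 4 fell in tolerant and 2 in sensitive roots, where 19.7% and 21.8% of all genes tested fell. NRAMP5 and Lsi2 had the lower level at 10 °C in sensitive roots without passing (adjusted p = 0.0519 and 0.119, authors' deposited table). None of the root loci was shown to differ between the lines in cold response by a derived Wald test. The shoot was represented by 6 loci of leaf photosynthesis, which summed to 4661 and 4542 normalised counts at 28 °C and to 1723 and 4565 at 10 °C in the tolerant and the sensitive line. Of these 6 loci, 3 fell and 0 rose in tolerant roots, and 1 fell and 1 rose in sensitive roots, so the even sum there covers changes of opposite sign. The cold response of 1 of them, LOC_Os01g41710, was lower in the tolerant than in the sensitive line. The log2 difference was −2.75 ± 0.64 (SE, derived Wald test, adjusted p = 0.00942). At 10 °C LOC_Os01g41710 and LOC_Os09g17740 had the lower level in tolerant roots, and the other shoot loci did not pass. Their log2 differences between the lines were −2.12 and −1.62 (adjusted p = 0.000519 and 0.00691, authors' deposited table). The part of these shifts in the phosphate results was not tested, and in whole roots fewer cells of a type and less RNA per cell cannot be told apart.

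**Figure D1:**
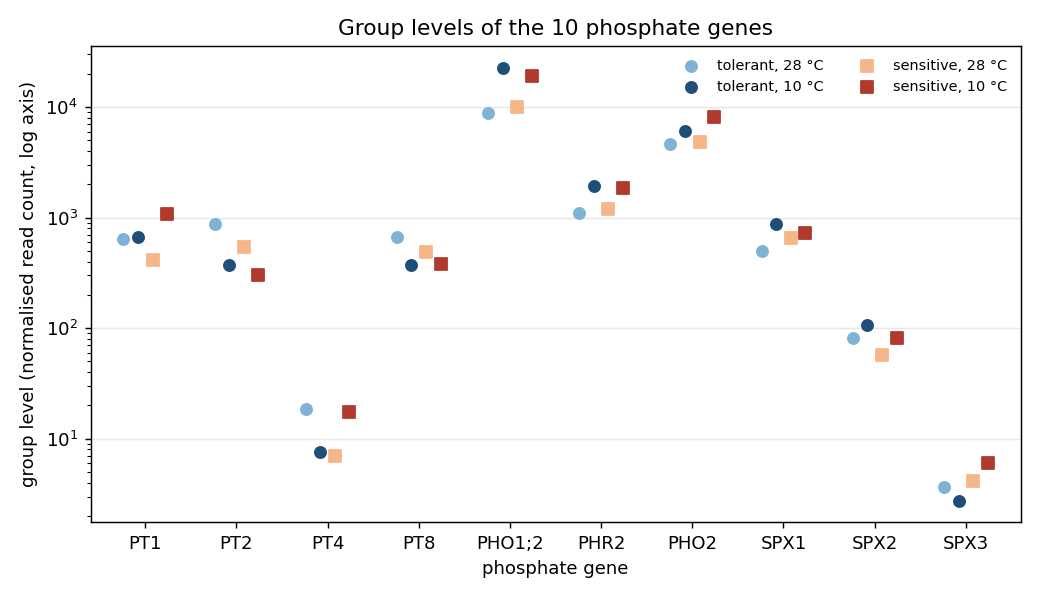
Group levels of the 10 phosphate genes in normalised read counts on a log axis, with 1 point per group (circles tolerant, squares sensitive, pale 28 °C, dark 10 °C). PHO1;2 and PHR2 stand higher at 10 °C in both lines, while PT2 and PT8 have the lower level at 10 °C in both lines without passing the test.

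In the cold, 3 of the 10 genes rose in tolerant roots and 4 rose in sensitive roots, and 0 fell in either line. PHO1;2 and PHR2 rose in both lines, and the share of all genes that did so is not given here. SPX1 was the third to rise in tolerant roots, and PT1 and PHO2 were the others in sensitive roots. Of all 26199 genes tested, 40.0% changed in tolerant roots (20.3% rose and 19.7% fell) and 44.5% in sensitive roots (22.8% rose and 21.8% fell). With 10 genes the counts of 3 and 4 stand close to these shares. The median log2 change of the 10 was 0.22 in tolerant and 0.59 in sensitive roots, beside medians of −0.08 and −0.03 over all genes tested. None of these calls remained (0 and 0) when the statistics were divided by their robust spread over all genes. That spread takes in the 40.0% and 44.5% of genes that changed, so a call lost under it is not shown to be false. The share of all genes that kept a call under it is not given here. At an adjusted p below 0.01 PHO1;2 was the 1 gene left in sensitive roots. In tolerant roots SPX1 was lost at that threshold, and PHO1;2 and PHR2 remained.

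Of the transporters among the 10 genes, only PT1 passed the test, and that in sensitive roots. Differences between transporters were not tested. PT1, a transporter with a constitutive part in phosphate uptake (LOC_Os03g05620), stood at 639 normalised counts in tolerant roots at 28 °C and 667 at 10 °C, and at 409.7 and 1072 in sensitive roots. Sensitive roots therefore held both the lowest and the highest level. PT1 rose in sensitive roots by a log2 change of 1.39 ± 0.50 (SE, adjusted p = 0.0151, authors' deposited table), a ratio of 2.62 with a 95% interval of 1.33 to 5.16. In tolerant roots the change in the authors' deposited table was 0.06 ± 0.50 (SE, adjusted p = 0.935), with a 95% interval of −0.92 to 1.04. A log2 change as high as that of PT1 in sensitive roots was found in 18.6% of genes tested there.

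PT2 (LOC_Os03g05640), which takes part in moving phosphate within the plant as a low-affinity transporter, had the opposite sign. Its level was 875 normalised counts at 28 °C and 373 at 10 °C in tolerant roots, and 540.4 and 301 in sensitive roots. The changes of −1.23 ± 0.71 (SE, adjusted p = 0.157) and −0.84 ± 0.71 (SE, adjusted p = 0.342) in the authors' deposited table did not pass. Between PT1 and PT2 1 locus is listed, and between PT1 and a further PHT1 locus 0 are. The sources used here do not say how reads from similar neighbouring copies were shared out, so values of PT1 and PT2 are uncertain to that extent. Reads of PT1 per read of PT2 went from 0.731 at 28 °C to 1.79 at 10 °C in the tolerant line, and from 0.758 to 3.56 in the sensitive line. That ratio is a description of group levels and was not tested.

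PT8 (LOC_Os10g30790), a high-affinity transporter of root uptake, stood at 673 and 372 normalised counts in tolerant roots at 28 °C and 10 °C, and at 486 and 377 in sensitive roots. Its changes of −0.86 ± 0.45 (SE, adjusted p = 0.12) and −0.37 ± 0.45 (SE, adjusted p = 0.534) in the authors' deposited table did not pass. The 95% intervals ran from −1.74 to 0.03 and from −1.26 to 0.52, so the interval in tolerant roots reached down to 0.299 of the level at 28 °C. PT4 (LOC_Os04g10750), another uptake transporter, was a gene of few reads, at 18.6 and 7.58 normalised counts in tolerant roots and 6.98 and 17.3 in sensitive roots. Its log2 changes in the authors' deposited table were −1.29 ± 1.10 (SE, adjusted p = 0.359) in tolerant and 1.31 ± 1.10 (SE, adjusted p = 0.341) in sensitive roots. The signs were opposite, and each interval included 0.

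The transcript of the xylem exporter had the smallest adjusted p of the 10 genes in each line. PHO1;2 (LOC_Os02g56510), the exporter that loads phosphate into the xylem of rice roots, went from 8884 normalised counts at 28 °C to 22735 at 10 °C in tolerant roots. In sensitive roots it went from 10026 to 19083. Both levels at 10 °C were above both levels at 28 °C. The log2 changes in the authors' deposited table were 1.36 ± 0.28 (SE, adjusted p = 1.17e-05) in tolerant and 0.93 ± 0.28 (SE, adjusted p = 0.00329) in sensitive roots, ratios of 2.56 (95% interval 1.75 to 3.75) and 1.90 (1.3 to 2.79). Changes as high as these were found in 14.8% and 25.9% of genes tested, so the rise was not extreme among all genes.

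Of 20124 genes with a mean of at least 20 normalised counts, the pattern of PHO1;2 over both cold responses and the line difference at 28 °C was matched most closely by LOC_Os07g05390, at a Euclidean distance of 0.0238 on the log2 scale, and LOC_Os01g15460, at 0.0252. LOC_Os07g05390 stood at 226 and 586 normalised counts in tolerant and 257 and 491 in sensitive roots, and LOC_Os01g15460 at 956 and 2465 and at 1094 and 2069. The distance rests on 4 group levels, and neither ID is paired with a name here.

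Among the regulators, PHR2 (LOC_Os07g25710) rose in both lines, from 1098 to 1927 normalised counts in tolerant and from 1205 to 1868 in sensitive roots. Its log2 changes in the authors' deposited table were 0.81 ± 0.27 (SE, adjusted p = 0.00908) and 0.63 ± 0.27 (SE, adjusted p = 0.0442). The rise in sensitive roots lay near the threshold, and it was lost when p-values were adjusted over every gene that had one (adjusted p = 0.0605, against 0.0362 to 0.986 over all alternatives run). PHO2 (LOC_Os05g48390) went from 4641 to 6049 normalised counts in tolerant and from 4792 to 8189 in sensitive roots. Its change passed in sensitive roots, at 0.77 ± 0.28 (SE, adjusted p = 0.0139), and not in tolerant roots, at 0.38 ± 0.28 (SE, adjusted p = 0.271), in the authors' deposited table.

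The SPX genes gave 1 call. SPX1 (LOC_Os06g40120), an SPX protein of the nucleus that binds PHR2, went from 497 to 869.9 normalised counts in tolerant roots; sensitive roots went from 654 to 726. Tolerant roots held both the lowest and the highest of the 4 levels. The log2 change in the authors' deposited table was 0.81 ± 0.27 (SE, adjusted p = 0.0108) in tolerant and 0.15 ± 0.27 (SE, adjusted p = 0.685) in sensitive roots. SPX2 (LOC_Os02g10780), which likewise binds PHR2, stood at 82.2 and 107 normalised counts in tolerant and 57.1 and 82.2 in sensitive roots, and its changes of 0.38 ± 0.58 (SE, adjusted p = 0.639) and 0.52 ± 0.59 (SE, adjusted p = 0.490) in the authors' deposited table did not pass.

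SPX3 (LOC_Os10g25310), a strong marker of phosphate starvation in rice roots, was close to the limit of detection. Its levels were 3.67 and 2.76 normalised counts in tolerant and 4.14 and 6.09 in sensitive roots, at 28 °C and 10 °C in that order, which is about 5 to 10 reads over the 2 libraries of a group. For comparison, the floor of 3 reads over a group came to between 1.22 and 1.83 normalised counts, a limit that covers counting error only. The intervals of its log2 change ran from −3.49 to 2.67 in tolerant and from −2.38 to 3.50 in sensitive roots, so even a severalfold change was not detectable at this depth.

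**Figure D2:**
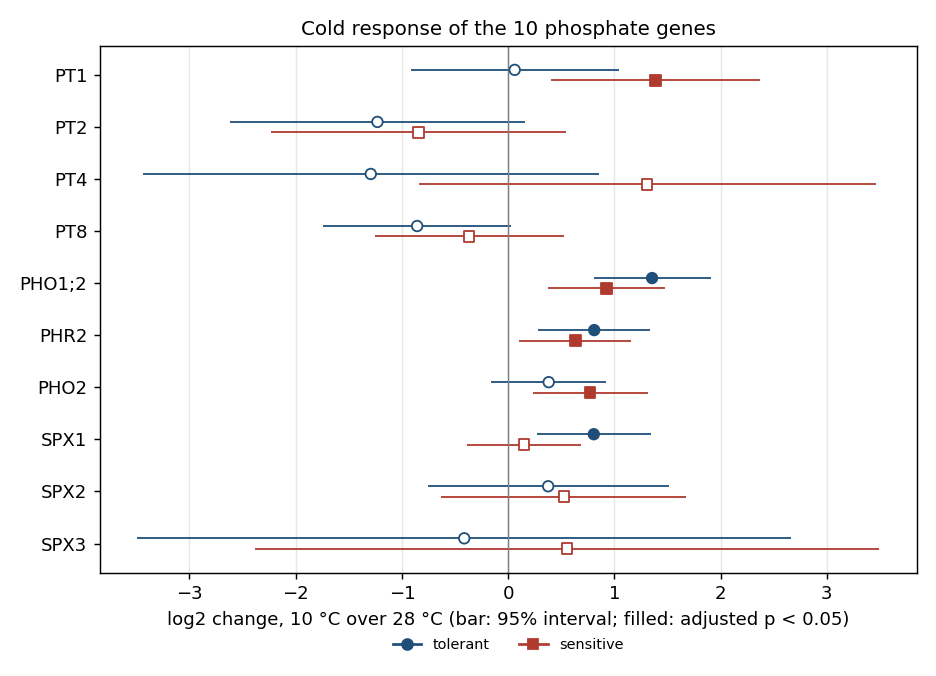
Log2 change from 28 °C to 10 °C of the 10 phosphate genes, with circles for tolerant and squares for sensitive roots; bars are 95% intervals from the deposited standard errors, and filled symbols passed an adjusted p of 0.05. Filled symbols are those of PHO1;2 and PHR2 in both lines, SPX1 in tolerant roots, and PT1 and PHO2 in sensitive roots, all above 0.

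The wider phosphate system was read from 29 more loci, of which 28 were in the tables and 25 were tested in both lines. They were written from general knowledge with earlier results of these data known, so they are not a neutral sample of phosphate genes. In tolerant roots 10 of the 25 rose and 0 fell, and in sensitive roots 9 rose and 2 fell. The shares of all genes that rose were 20.3% and 22.8%. Risers common to both lines numbered 7. The share of all genes that rose in both lines is not given here, so this count is a description. With the statistics divided by their robust spread, 1 locus (NLA2) rose in each line and 0 fell. No other call in the paragraphs that follow remained under that setting, for which no share of all genes is given here. The median log2 change of the 25 was 0.81 in tolerant and 1.25 in sensitive roots, beside −0.08 and −0.03 over all genes tested. Of the 28 loci, 17 had a mean of at least 20 normalised counts, so these medians take in genes of few reads.

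PHR3, a relative of PHR2, went from 280.3 to 1155 normalised counts in tolerant and from 299.7 to 1318 in sensitive roots. Its log2 changes of 2.04 ± 0.28 (SE, adjusted p = 6.05e-12) and 2.14 ± 0.28 (SE, adjusted p = 3.72e-13) stand in the authors' deposited table beside 0.81 and 0.63 for PHR2. SPX4, which holds PHR2 in the cytoplasm, went from 684 to 1557 and from 772 to 1836 normalised counts. Its log2 changes in the authors' deposited table were 1.19 ± 0.24 (SE, adjusted p = 4.34e-06) and 1.25 ± 0.23 (SE, adjusted p = 9.47e-07). With the listed family members counted, 3 of 4 PHR loci rose in tolerant and 2 of 4 in sensitive roots. Of 6 SPX loci listed 5 were found and tested, of which 2 rose in tolerant and 1 in sensitive roots. Among all genes tested 20.3% and 22.8% rose, and the SPX count in sensitive roots stands close to that share.

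PHO1;1, a second PHO1 exporter, rose as PHO1;2 did, from 201 to 585 normalised counts in tolerant and from 177 to 679 in sensitive roots. The changes were 1.54 ± 0.42 (SE, adjusted p = 0.00121) and 1.94 ± 0.42 (SE, adjusted p = 2.75e-05) in the authors' deposited table. PHO1;3 went the other way, from 161 to 83.9 and from 176 to 80.9 normalised counts. It fell in sensitive roots, by −1.12 ± 0.47 (SE, adjusted p = 0.0404), and did not pass in tolerant roots, at −0.94 ± 0.47 (SE, adjusted p = 0.0968), in the authors' deposited table. That fall was lost with p-values adjusted over every gene that had one (adjusted p = 0.0552, against 0.0329 to 0.99 over all alternatives run) and at an adjusted p below 0.01.

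Of 5 loci for transporters of the vacuole, which stores phosphate, 3 rose in each line, where 20.3% and 22.8% of all genes tested rose, but not the same 3. SPX-MFS3, a vacuolar membrane transporter with an SPX domain, went from 1205 to 4742 normalised counts in tolerant and from 1244 to 6560 in sensitive roots, with log2 changes of 1.98 ± 0.47 (SE, adjusted p = 0.000143) and 2.40 ± 0.47 (SE, adjusted p = 2.30e-06) in the authors' deposited table. SPX-MFS2 went from 164 to 529 and from 152 to 374 normalised counts and rose in both lines. VPE2, a phosphate efflux carrier of the vacuole, went from 507 to 1865 normalised counts in tolerant roots, where it rose, and from 756 to 1246 in sensitive roots, where it did not pass (adjusted p = 0.117, authors' deposited table). The third to rise in sensitive roots was SPX-MFS1, named after its values were seen and of few reads. Its fitted levels there were 0.158 normalised counts at 28 °C, under the floor of 1.28, and 8.61 at 10 °C. The SE of its log2 change there in the authors' deposited table was 2.09. In tolerant roots SPX-MFS1 went from 1.21 to 6.96 normalised counts without passing. The cold responses of VPE2 and SPX-MFS1 were not shown to differ between the lines (derived Wald test, adjusted p = 0.544 and 0.908).

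Genes of protein turnover and of the starvation response also moved in part. NLA2, a homologue of the ubiquitin ligase NLA1 that acts on PHT1 transporters, went from 330 to 1173 normalised counts in tolerant and from 391 to 1629 in sensitive roots. Its log2 changes of 1.83 ± 0.18 (SE, adjusted p = 5.04e-21) and 2.06 ± 0.18 (SE, adjusted p = 4.76e-27) in the authors' deposited table had the smallest adjusted p-values of all phosphate loci listed. NLA1 did not pass in either line. GDPD2, an enzyme that breaks down phospholipid head groups and is induced by phosphate starvation, went from 3214 to 11069 and from 3763 to 12434 normalised counts and rose in both lines. Of 4 such starvation-induced genes listed, 2 rose in tolerant and 1 in sensitive roots, where 20.3% and 22.8% of all genes tested rose. The count in sensitive roots stands close to that share. PHF1, which lets PHT1 proteins leave the endoplasmic reticulum and was named after its values were seen, fell in sensitive roots from 1913 to 969.7 normalised counts and went from 1798 to 1104 in tolerant roots without passing.

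Of the 13 PHT1 loci in all, 10 could be tested in both lines. In tolerant roots 0 of them rose or fell (0 at an unadjusted p below 0.05, where 47.4% of all genes tested were). The SEs of their log2 changes there ran from 0.45 to 2.46, so those of few reads could pass only with a large change. In sensitive roots 2 rose, where 22.8% of all genes tested did. Beside PT1 the second was PT5, likewise named after its values were seen, with a fitted level of 0.158 normalised counts at 28 °C, taken as 0 reads over the group, and 47.3 at 10 °C in sensitive roots. Set against the floor of 3 reads, that is at least 36.9-fold higher, a bound that leaves out the spread between libraries, while the SE of its log2 change in the authors' deposited table was 2.19. In tolerant roots PT5 stood at 4.13 and 7.49 normalised counts. PT3, which lies beside PT8 with no listed locus between them, stood at 1.70 to 9.06 normalised counts in the 4 groups. PT5 lies beside PT4 in the same way, so values of these pairs are also uncertain in how reads were shared out.

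**Figure D3:**
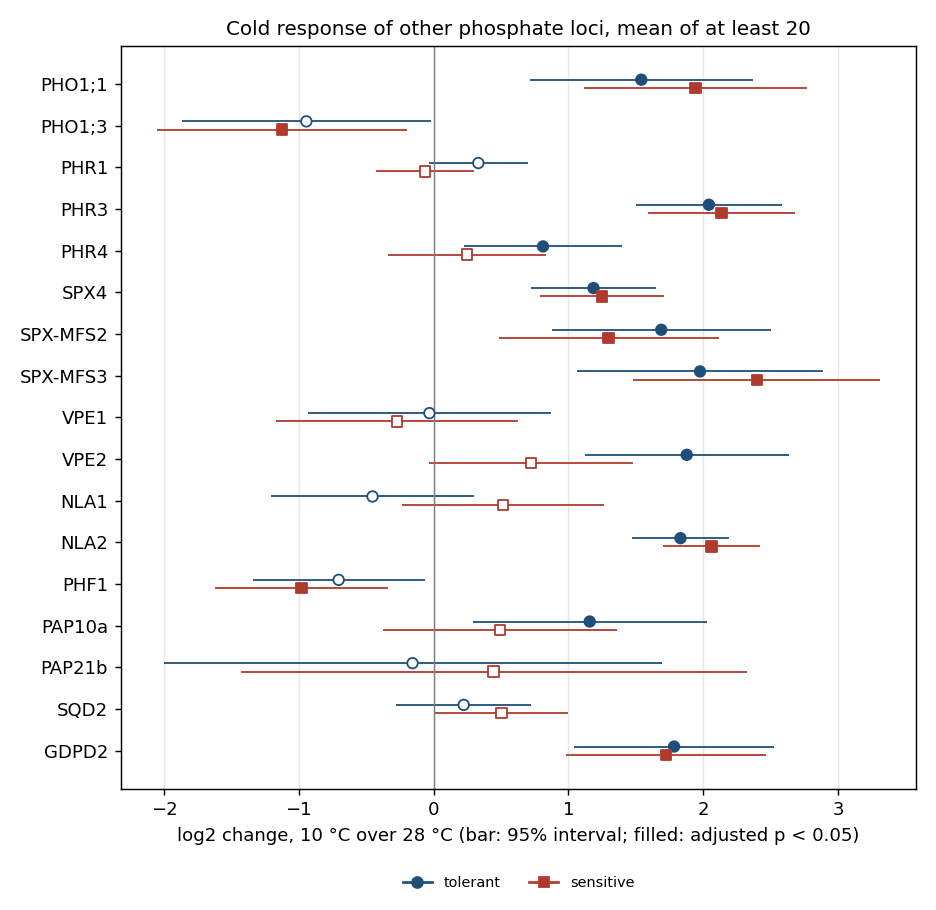
Log2 change from 28 °C to 10 °C of the 17 further phosphate loci with a mean of at least 20 normalised counts, drawn as for the 10 genes (circles tolerant, squares sensitive, bars 95% intervals, filled symbols past an adjusted p of 0.05). PHO1;1, PHR3, SPX4, SPX-MFS2, SPX-MFS3, NLA2 and GDPD2 are filled and above 0 in both lines, and PHO1;3 and PHF1 lie below 0 in both and are filled in sensitive roots.

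Whether the lines differed in their cold response was tested on the difference of the log2 changes, tolerant minus sensitive, by a Wald test calculated here out of the deposited values. None of the 10 genes passed, and 0 had an unadjusted p below 0.05; over all 26199 genes, 0.622% passed and 8.05% had an unadjusted p below 0.05. The calls of PT1 and PHO2 in sensitive roots alone and of SPX1 in tolerant roots alone are therefore not shown to be line-specific. For PT1 the difference was −1.33 ± 0.71 (SE, derived Wald test, adjusted p = 0.659), with a 95% interval of −2.71 to 0.06. SPX1 had a difference of 0.66 ± 0.39 (SE, derived Wald test, adjusted p = 0.725), with an interval of −0.10 to 1.42, and PHO2 of −0.39 ± 0.39, with an interval of −1.15 to 0.37. PHR2 had the narrowest interval, from −0.57 to 0.93, and PHO1;2 had one from −0.35 to 1.21. Of the 25 other loci 0 passed, and 2 had an unadjusted p below 0.05.

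The lines were also compared at each temperature. These comparisons use the same libraries as the cold responses and are given beside them, not as further support. At 28 °C, 0 of the 10 genes differed between tolerant and sensitive roots, where 0.765% of 27576 genes tested did, and 0 had an unadjusted p below 0.05, where 3.78% of all did. PT1, PT2, PT4, PT8 and SPX2 had the higher level in tolerant roots, with log2 differences of 0.47 to 1.41 in the authors' deposited table, and the other 5 genes had the lower level, with differences of −0.40 to −0.05. At 10 °C, 9 of the 10 were tested, SPX3 being left without an adjusted p, and 0 differed, where 2.90% of 23446 genes tested did; 0 had an unadjusted p below 0.05, where 12.9% of all did. There PT1 was at −0.68 ± 0.50 (SE, adjusted p = 0.631) and PHO2 at −0.44 ± 0.28 (SE, adjusted p = 0.541) in the authors' deposited table.

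Ordered by level, PHO1;2, PHR2 and SPX1 had the same sequence: tolerant at 28 °C, sensitive at 28 °C, sensitive at 10 °C, tolerant at 10 °C. Neighbours of the same temperature in that sequence did not differ at an adjusted p below 0.05. The step between sensitive roots at 28 °C and at 10 °C passed the test for PHO1;2 and PHR2 and not for SPX1. For the remaining 7 genes no tested difference between the lines at the same temperature passed either. Differences between lines at unlike temperatures have no deposited standard error and were not tested.

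**Figure D4:**
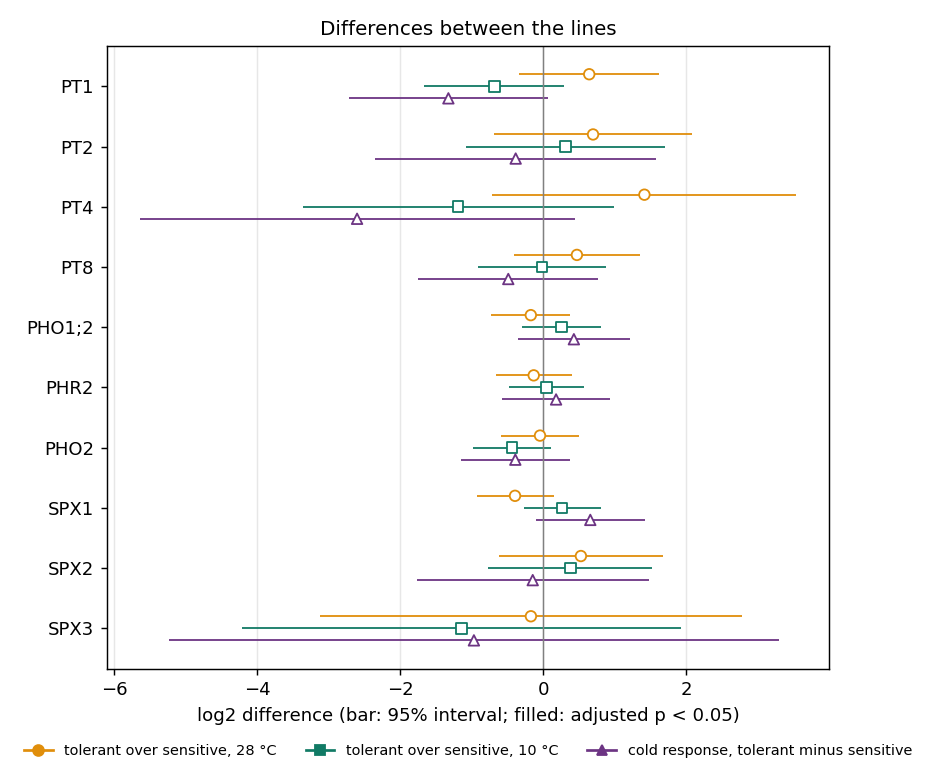
Log2 differences of the 10 phosphate genes between the lines at 28 °C (circles), at 10 °C (squares), and between the cold responses, tolerant minus sensitive (triangles); bars are 95% intervals and no symbol is filled, since none passed an adjusted p of 0.05. The intervals of PHO1;2, PHR2, PHO2 and SPX1 are narrower than those of PT4 and SPX3, the 2 genes of fewest reads.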

How the data were processed

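Per the labels' protocols, poly-A RNA from roots was sequenced as short single ends. The submitters' processing notes name Bowtie 0.12.7 while the deposited tables are titled with STAR, another aligner, and which was used is unresolved; the sources used here do not give genome build, annotation or read counter. The 4 deposited tables have the columns of a DESeq2 results table, per the file headers. The mean signal per gene (counts divided by size factors) was calculated by the authors over all libraries and was identical in the 4 tables. Deposited log2 fold changes, their standard errors, the score (Wald statistic), p-values and adjusted p-values were used as the authors gave them.

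From these, group levels were calculated with pandas 2.3.3 and SciPy 1.17.1. Going round the 4 tables, the log2 changes summed to 0 within 7.59e-14. Genes with just 1 read gave each library's size factor and showed, for 8 of 8 libraries, that positive changes point to the group named last. Intervals are the log2 change ± the normal quantile times its SE. The difference between cold responses was divided by the root of the summed squared SEs and referred to the normal distribution. It was adjusted by Benjamini-Hochberg over 26199 genes. The calculation was run on data simulated with normal noise of the deposited SEs, which cannot show whether those SEs hold. No count test could be refitted from comparison tables.

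The 10 genes and all lists were chosen with earlier results of these data known, from general knowledge of rice; 0 locus IDs matched the RefSeq gene table, and 16 of the 29 further names stood there on the right chromosome. All 10 genes are named, and of the further loci at most 8 per comparison, those with the largest change among called loci with a mean of at least 20. Outside that rule, PT3, PT5, SPX-MFS1, NLA1 and PHF1 were named after their values were seen. Sequences were not used here.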

Additional observations from a re-analysis of the deposited data

How the results depend on the processing

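No paired analysis was possible because the tables hold comparisons between groups and no value per library; for the same reason leaving out each replicate was not run. Only centring and rescaling shift the changes themselves and could turn a sign; neither did for the 10 genes or the called further loci. Rises among the 10 genes numbered 3 in tolerant and 4 in sensitive roots. At an adjusted p below 0.01 the sensitive count was 1 (PHO1;2), and in tolerant roots SPX1 was lost while PHO1;2 and PHR2 remained. Among changes of at least 2-fold the counts were 1 (PHO1;2) and 1 (PT1). With statistics divided by their robust spread, 0 and 0 of the 10 and 1 and 1 of the further loci (NLA2) rose, and 0 fell. That spread (2.71 and 2.97 in the cold responses) takes in the genes that changed, and its cause was not tested. Shares of all genes that passed at 0.01, at 2-fold or after rescaling are not given here. The 2 falls among further loci in sensitive roots became 1 at an adjusted p below 0.01 (PHF1), 1 with adjustment over every gene with a p-value (PHF1) and 1 at 2-fold (PHO1;3). At 28 °C, 1 further locus (PT5) differed between the lines after the same rescaling, with a spread of 0.675. The counts of 0 between the lines otherwise stayed at 0. For PHR2 in sensitive roots the adjusted p ranged from 0.0362 to 0.986. Depth limits SPX3 and PT4, whose intervals span several fold.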
